A study of Mus musculus with 4 samples.

Results

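The genes described here encode the proteins of the cytosolic ribosome, measured by RNA sequencing in MC3T3-E1 cells, a mouse pre-osteoblastic line from skull with wild-type genotype. Members were chosen by name alone: protein-coding genes called Rpl or Rps with a number, plus Rplp0, Rplp1, Rplp2 and Rpsa, which gave 84 of the 41288 genes in the table. Of these, 52 belong to the large subunit and 32 to the small subunit. Names of 5 more genes fitted, but the table lists them as pseudogenes (Rpl6l, Rps12l1, Rps3a2, Rps3a3 and Rps4l), and they were left out.

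Each of the 4 groups was 1 library: cells under mechanical strain in conditioned medium of PC-3, a human line of prostate cancer, cells in that medium alone, cells under strain alone, and an untreated control. Strain was tensile, at 2500 microstrain and 0.5 Hz for 1 h per day, and the cells were grown in DMEM with 10% fetal bovine serum at 37 °C and 5% CO2. No group received medium conditioned by other cells, and how long the treatments lasted is not given in the sources used here. Column heads in the table are single letters or pairs. O was read as control, L as loading (the word in the strained samples' titles), LT as both treatments and T, by elimination, as conditioned medium. Should T mean tensile, strain and conditioned medium would swap in all that follows, apart from the comparison of both treatments with control. With 1 library per group, no difference below has a replicate check, and treatment cannot be told apart from batch.

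Ribosomal proteins are made in matching amounts and assembled with ribosomal RNA in the nucleolus into the large subunit, which joins amino acids, and the small subunit, which reads the mRNA. Their mRNAs are among the most abundant of growing cells, and most begin with a run of pyrimidines (the terminal oligopyrimidine, or TOP, motif) through which the mTORC1 kinase and the RNA-binding protein LARP1 set how strongly they are translated. Osteoblasts secrete large amounts of collagen and other matrix proteins, so their demand for ribosomes is high when they produce bone matrix.

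Some sequences near the start sites were more frequent among members than among other genes. Promoters from RefSeq (build GRCm38.p6) were matched for 64 of the 84 members, 60 of them with at least 1 RPKM (counts scaled to gene model length and library total). Below, 30 bases before and 20 bases from the start are printed on the gene's strand, 5′ to 3′, for 5 members with a pyrimidine motif at the start and for Rpl31, Rpl39, Rpl36a and Rpl14, members at the ends of the comparisons that follow. Capitals mark the motif, CTTT followed by 2 bases that are each C or T, where it lay on the gene's strand between 5 bases before and 15 bases after the start. These letters are narrower than a TOP motif, which can be another run of pyrimidines, so their share is not the share of TOP mRNAs. Rpl14 is unmarked although its start is a run of C and T.
Rpl38, chr11:114668550-114668599, plus strand: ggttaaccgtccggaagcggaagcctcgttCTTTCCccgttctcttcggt
Rpl12, chr2:32961682-32961731, plus strand: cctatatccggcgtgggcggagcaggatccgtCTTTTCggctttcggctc
Rpl28, chr7:4792935-4792984, plus strand: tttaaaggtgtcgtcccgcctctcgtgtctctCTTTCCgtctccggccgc
Rps27, chr3:90213629-90213678, minus strand: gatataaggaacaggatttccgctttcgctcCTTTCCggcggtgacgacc
Rps6, chr4:86857348-86857397, minus strand: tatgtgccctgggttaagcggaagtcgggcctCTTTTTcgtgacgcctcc
Rpl31, chr1:39367821-39367870, plus strand: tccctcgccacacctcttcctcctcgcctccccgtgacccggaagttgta
Rpl39, chrX:37085203-37085252, minus strand: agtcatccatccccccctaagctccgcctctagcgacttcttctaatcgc
Rpl36a, chrX:134585624-134585673, plus strand: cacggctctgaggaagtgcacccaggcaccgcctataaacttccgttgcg
Rpl14, chr9:120571487-120571536, plus strand: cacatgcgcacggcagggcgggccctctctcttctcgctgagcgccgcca
These motif letters lay in that window in 13 of the 60 member promoters (21.7%), against 2.34% of 17427 promoters of other protein-coding genes and 2.06% of the 7473 whose gene had at least 100 counts in each library. When the window was widened to 50 bases either side, a width chosen after the windows were seen, 31 of 60 (51.7%) held them, against 13.3% of the other promoters and 11.2% of those with at least 100 counts. GGAAG, the core letters of sites for ETS factors, lay on either strand of the 300-base promoter in 91.7% of members, 72.0% of all others and 76.0% of others with at least 100 counts. The longer CCGGAAG, chosen after the windows were seen and overlapping it, lay in 40% of members, 11.8% of all others and 20.4% of others with at least 100 counts. AAGATGGC, the letters bound by the factor YY1, lay in 10%, 3.20% and 5.42% of the same sets. The start motif was in 9 of 36 large subunit and 4 of 24 small subunit promoters, and the median GC content was 58.2% in members, above the 56.3% of all others and below the 62.0% of others with at least 100 counts.

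Library totals were 10007546 counts with both treatments, 10659166 with conditioned medium, 10722179 with strain and 10997085 in control. Protein-coding genes took 92.6%, 94.6%, 93.5% and 95.3% of them in the same order, and Rn18s-rs5, an entry with ribosomal RNA sequence, took 3.36%, 2.12%, 2.80% and 1.52%. Of 9 osteoblast lineage markers 6 reached 1 RPKM, Col1a1, Spp1 and Postn among them, while Alpl, Bglap and Ibsp stayed under 1. Of 4 leukocyte, 3 endothelial, 4 epithelial and 3 adipocyte markers, 0 reached 1 RPKM, and Ptprc, Epcam and Adipoq were at 0 in each library. Of 3 skeletal muscle markers only Acta1 did, at 0.827 RPKM with both treatments, 1.254 with conditioned medium, 2.14 with strain and 1.97 in control.

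Members were expressed far above the typical gene, and their levels differed more from gene to gene than from library to library. Of the 84, 80 had at least 1 RPKM, 48 of the large and all 32 of the small subunit, each with 408 to 11941 counts per library. Their median was 159 RPKM with both treatments, 164 with conditioned medium, 179 with strain and 170 in control, 14.8, 15.1, 16.2 and 15.3 times the median of expressed protein-coding genes in that library. Across members the control levels ran from 33.6 to 790 RPKM, a 23.5-fold range, while within a member the highest library was less than 25% above the lowest for 78 of 80 (97.5%). That was so for 70.9% of 9318 protein-coding genes with at least 100 counts in each library and for 80.7% of the 5229 with at least 400.

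The most abundant members per length were Rplp0 and Rplp1 of the stalk, which recruits elongation factors, and Rpl8 of the catalytic side. Other proteins of these places, Rplp2 and Rpl12 of the stalk and Rpl3 and Rpl10 of the catalytic side, stood further down. Rplp0, the stalk base, had 784 RPKM with both treatments, 817 with conditioned medium, 819 with strain and 790 in control. Rpl8, which lies near the peptidyl transferase centre, had 735, 761, 797 and 763 RPKM in the same order of libraries, and Rplp1, an acidic stalk protein, 719, 696, 682 and 695. The small subunit's highest were Rps15, of the decoding region, with 649, 659, 708 and 670 RPKM, and Rps26, at the mRNA exit, with 626, 666, 696 and 688 RPKM. Rplp0 was highest in every library, but Rpl8 and Rplp1 stood closer to each other with both treatments than in the others.

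At the low end, Rps15a had 33.9 RPKM with both treatments, 32.9 with conditioned medium, 35.1 with strain and 33.6 in control. Rps27l, a paralog of Rps27, had 43.9, 39.6, 45.3 and 43.3 RPKM, and Rpl22, 45.9, 46.8, 48.1 and 44.0. Rpl29 had 45.2, 51.3, 51.1 and 47.3 RPKM, and Rps6, the substrate of the S6 kinases, 46.8, 45.2, 53.5 and 49.8. Rps27l stood below Rpl22, Rpl29 and Rps6 in each library. Rpl22, Rpl29 and Rps6 changed places with each other between libraries, so their order is not resolved. The table's gene model for Rps15a is 5136 bases long, against 3446 for Rps20 and 3432 for Rps24, and a long model lowers RPKM. Across the 80 members, log2 length and log2 RPKM had a Pearson correlation of -0.37, given as a description of genes that share the same libraries. With the principal transcript's length in place of the model's, Rps15 led with Rplp0 behind it, and the control range was 25.4-fold. Rps15a was still lowest, at 33.3 in control against 33.6 RPKM, since its principal transcript is about as long as its model. For Rps15a, and so for the range, this change of length could not show what the long model does. The small subunit median was above the large one in each library, at 176 against 156 RPKM with both treatments and 187 against 166 in control.

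**Figure D1:**
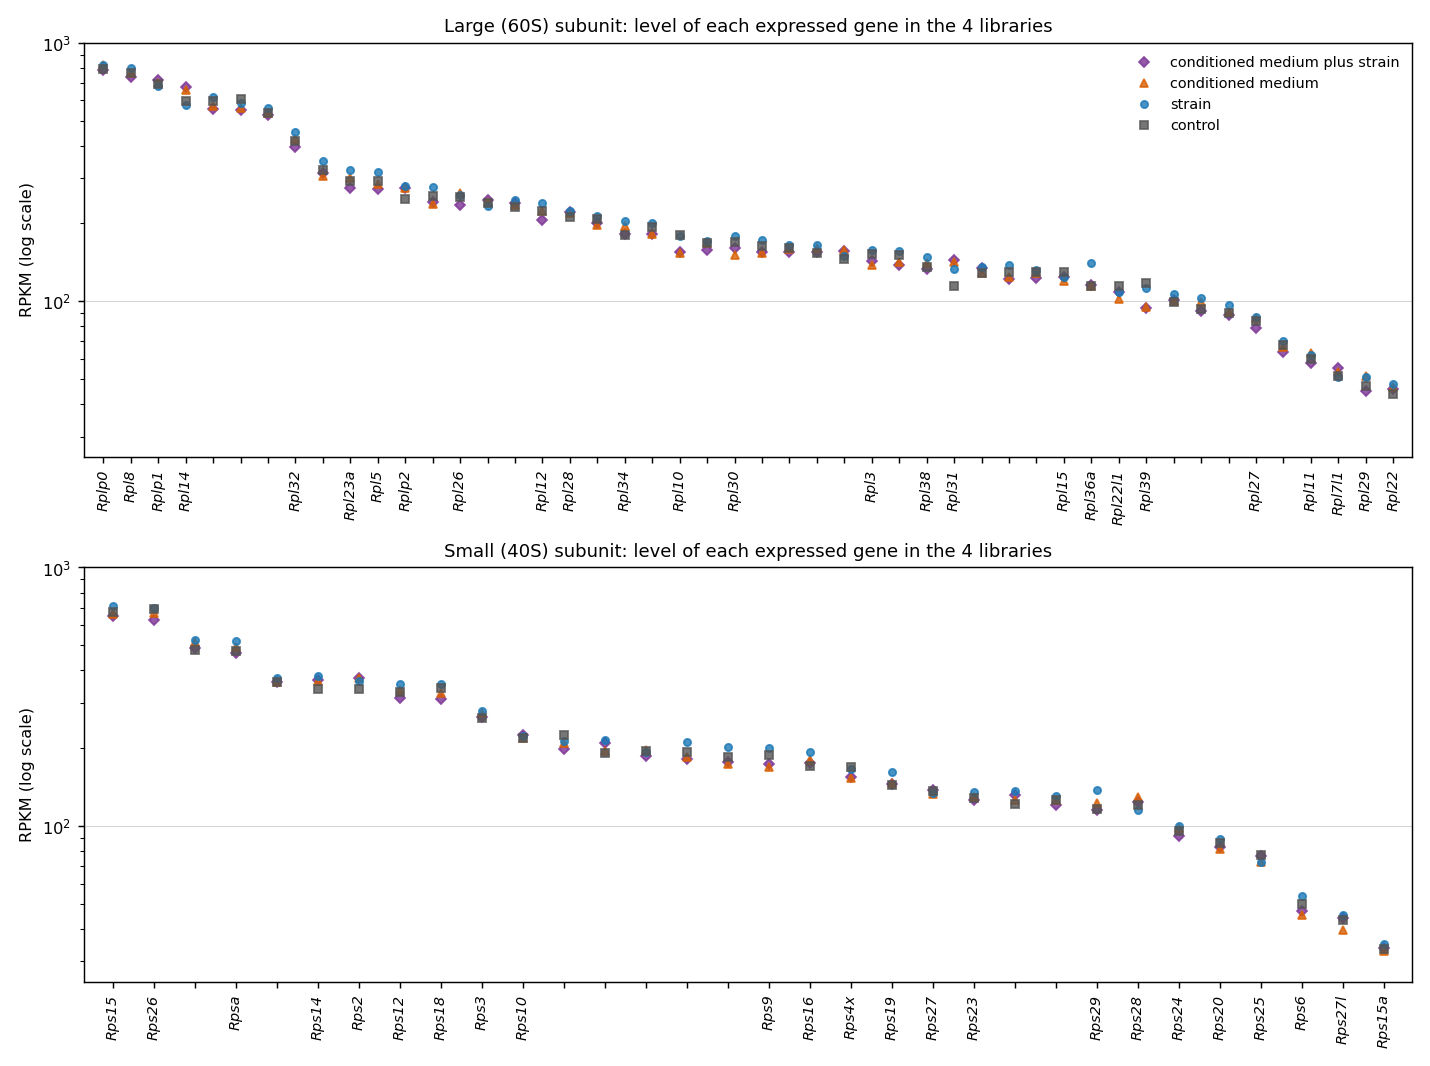
RPKM on a log axis for the 48 large subunit (top) and 32 small subunit (bottom) genes with at least 1 RPKM, ordered by mean level, with 1 point per library; genes named in the text are labelled. Levels in control ran from 33.6 RPKM for Rps15a to 790 for Rplp0, and the 4 points of a gene mostly lie on top of each other.

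The other 4 members, all named as paralogs, were near 0. Rpl3l, the muscle paralog of Rpl3, had 1 count with both treatments, 1 with conditioned medium, 3 with strain and 3 in control. Rpl39l, a paralog of Rpl39 known from testis, had 0, 1, 1 and 0 counts, Rpl32l 0, 0, 2 and 0, and Rpl10l, the testis paralog of Rpl10, 0 in each of the 4. At these depths 3 counts correspond to 0.293 RPKM for Rpl10l with both treatments and 0.267 in control, so a level under that was not detectable. The 3 expressed paralogs were Rpl22l1, at 102 to 114 RPKM, above Rpl22 itself, Rpl7l1, at 50.8 to 55.4, and Rps27l. By counts, which are not divided by model length, Rpl22 was the higher in each library, with 1208 in control against 696 for Rpl22l1. Pseudogenes of ribosomal proteins, 891 in the table, held 1376 to 1686 counts per library, 0.799% to 0.901% of the members' own counts. How the authors' counting treated reads that fit a gene and its copies is not given in the sources used here.

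Summed over all 84 genes, ribosomal protein transcripts took the largest share of counts in the strain library and the smallest with both treatments. The share was 1.67% (95% exact Clopper-Pearson interval 1.67 to 1.68) with both treatments, 1.70% (1.70 to 1.71) with conditioned medium, 1.78% (1.78 to 1.79) with strain and 1.70% (1.69 to 1.71) in control. Large subunit genes took 1.03%, 1.05%, 1.095% and 1.05%, and small subunit genes 0.640%, 0.652%, 0.690% and 0.649%. Both subunits had their highest share with strain and their lowest with both treatments. These intervals cover counting error only, and copies made in PCR are not independent molecules. As a share of protein-coding counts alone, which leaves out the ribosomal RNA entry, members took 1.81% with both treatments, 1.80% with conditioned medium, 1.91% with strain and 1.79% in control, so strain was highest on either base and both treatments lowest only on the first. In bulk RNA, a lower level per cell and fewer cells with a high level cannot be told apart, and shares say nothing of the total RNA per cell.

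**Figure D2:**
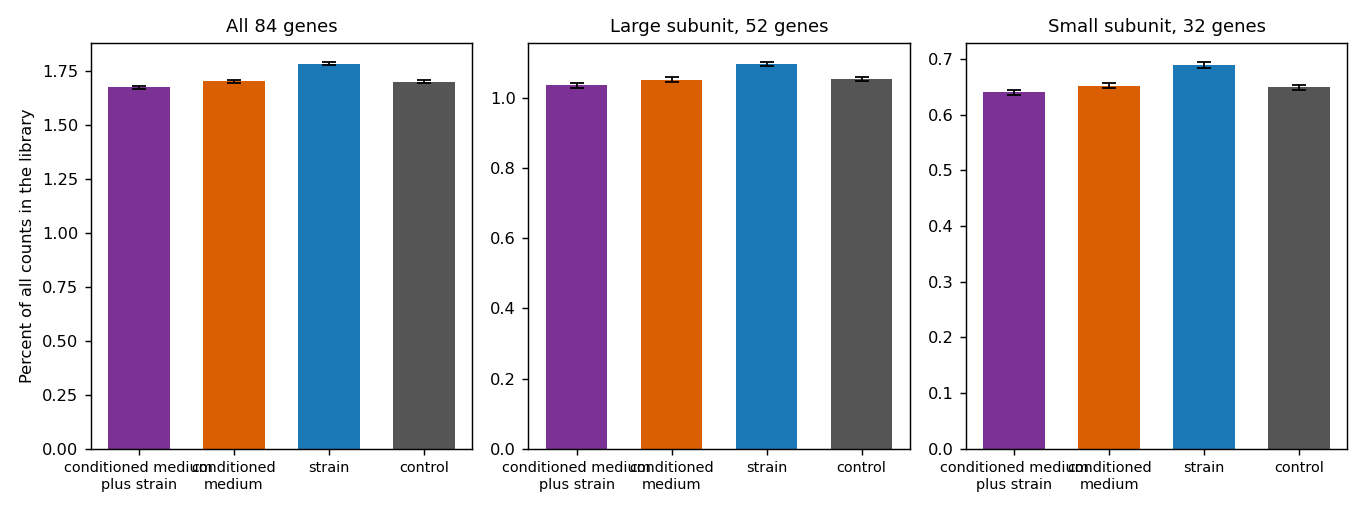
Percent of all counts taken by all 84 ribosomal protein genes (left), the 52 large subunit genes (middle) and the 32 small subunit genes (right) in each library, with 95% exact binomial intervals for counting error. The strain bar is highest in each panel, at 1.78%, 1.095% and 0.690%.

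Between libraries, members were compared by the ratio of their count shares, with 95% limits taken from exact Clopper-Pearson limits on the first library's part of their joint counts, again for counting error only. No test was possible with 1 library per group. A gene was counted as different when its share in the higher library was at least 25% above that in the lower, and separately when that interval lay wholly above or below 1.

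With strain against control, ribosomal protein genes were slightly higher as a set. The median log2 ratio was 0.07 over the 80 members, 0.06 for the 48 of the large subunit and 0.08 for the 32 of the small subunit, and the median of the other protein-coding genes with at least 100 counts was -0.03. Of the members 65 were above 0 (81.3%), 39 large and 26 small, against 42.1% of those other genes. Summed counts gave a ratio of 1.04 (1.03 to 1.05) for the large and 1.06 (1.05 to 1.07) for the small subunit. No member was past 25%, where 18.3% of all genes with at least 1 RPKM and 7.75% of protein-coding genes with at least 100 counts were. The interval lay above 1 for 32 members and below 1 for 1, Rpl14. The same held for 10.8% (above) and 23.0% (below) of protein-coding genes with at least 400 counts, about the members' minimum.

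Rpl36a, a large subunit protein, had the highest ratio: it had 738 counts (68.8 CPM, counts scaled to the library total) with strain and 618 (56.2 CPM) in control, a ratio of 1.22 (1.099 to 1.37). Rps29, a zinc-binding small subunit protein and the shortest model among members, had 579 counts with strain and 501 in control, a ratio of 1.19 (1.05 to 1.34). Rpl31, which sits at the mouth of the exit tunnel, had 1795 counts with strain and 1575 in control, a ratio of 1.17 (1.09 to 1.252). Rps16 (1.14, 1.05 to 1.23) and Rpl34 (1.13, 1.05 to 1.22) followed. Below 1 stood Rps25 at 0.944 (0.838 to 1.06), Rpl22l1 at 0.946 (0.849 to 1.05), Rps28 at 0.954 and Rpl15 at 0.956, whose intervals all included 1. Scaling by TMM, edgeR's trimmed mean of ratios, moved the split of members above and below 0 to 72 and 8.

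With conditioned medium against control, the set as a whole stood level while single members differed in both directions. The median log2 ratio was 0.00 over all 80, 0.00 for the large and 0.01 for the small subunit, and -0.04 for the other protein-coding genes. Of the members 41 were above 0 (51.3%), 24 of 48 large and 17 of 32 small, against 42.2% of the other genes. TMM scaling gave 54 above and 26 below. No member was past 25%, against 25.7% of genes with at least 1 RPKM and 15.5% of protein-coding genes with at least 100 counts. The interval was above 1 for 11 of 80 members and below 1 for 15, against 17.8% and 28.4% of protein-coding genes with at least 400 counts. It included 1 for 67.5% of members and 53.8% of those genes.

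Rpl31 had the highest ratio again, with 1897 counts in conditioned medium and 1575 in control, a ratio of 1.24 (1.16 to 1.33). Rpl14 had 6542 counts in conditioned medium and 6139 in control, a ratio of 1.099 (1.06 to 1.14). Rplp2, an acidic stalk protein, stood at 1.099 and Rps2, of the mRNA entry region, at 1.098. Rpl39, the small protein that lines the exit tunnel, stood lowest with 438 counts in conditioned medium and 562 in control, a ratio of 0.804 (0.708 to 0.913). Rpl10, which joins the large subunit late in assembly and reaches toward the catalytic centre, had 1305 counts in conditioned medium and 1584 in control, a ratio of 0.850 (0.789 to 0.915). Rpl22l1 (0.889, 0.796 to 0.993), Rpl30 (0.893, 0.820 to 0.972) and Rps9, of the mRNA entry region (0.899, 0.853 to 0.948), came next. The 3 proteins of the peptidyl transferase side, Rpl3, Rpl8 and Rpl10, had a median log2 ratio of -0.13, with Rpl8 at 0.998 and Rpl3 at 0.912 (0.861 to 0.965).

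With both treatments against strain, the comparison in the series title, ribosomal protein genes were lower as a set. The median log2 ratio was -0.11 over all 80, -0.12 for the large and -0.11 for the small subunit, against -0.04 for the other protein-coding genes. Only 13 members were above 0, 8 large and 5 small (16.3%, against 41.2% of the other genes), and summed counts gave 0.945 (0.937 to 0.953) for the large and 0.928 (0.918 to 0.938) for the small subunit. No member was past 25%, where 23.2% of genes with at least 1 RPKM and 12.7% of protein-coding genes with at least 100 counts were. The interval lay below 1 for 45 members and above 1 for 4, and for 24.9% and 15.4% of protein-coding genes with at least 400 counts.

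This comparison shares the strain library with strain against control, so a member high in that library stands high in one and low in the other. Rpl36a had 564 counts with both treatments and 738 with strain, a ratio of 0.819 (0.732 to 0.915). Rpl39 had 408 with both and 525 with strain, a ratio of 0.833 (0.730 to 0.949), and Rps29 452 with both and 579 with strain, a ratio of 0.836 (0.738 to 0.948). Rpl23a, where nascent chains leave the tunnel, stood at 0.851 (0.795 to 0.910) and Rpl12, of the stalk base, at 0.860 (0.799 to 0.925). Rpl14 went the other way, with 6283 counts with both and 5746 with strain, a ratio of 1.17 (1.13 to 1.21). Rpl7l1 (1.09, 1.01 to 1.17), Rpl31 (1.08, 1.01 to 1.15) and Rplp1 were the others with an interval above 1.

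With both treatments against conditioned medium, members were nearly level. The median log2 ratio was -0.02 over all 80, -0.02 for the large and -0.01 for the small subunit, and -0.03 for the other protein-coding genes. Of the members 34 were above 0 (42.5%, against 38.7%), 20 large and 14 small. The split was 44 above and 36 below with TMM scaling. No member was past 25%, against 13.4% of genes with at least 1 RPKM and 2.62% of protein-coding genes with at least 100 counts. The interval lay below 1 for 13 members and above 1 for none, and for 14.8% and 3.53% of protein-coding genes with at least 400 counts. Rpl29 was lowest with 813 counts with both and 983 in conditioned medium, a ratio of 0.881 (0.802 to 0.968), followed by Rpl26 at 0.905 (0.840 to 0.976), Rpl11 at 0.913, Rpl23a at 0.914 and Rpl27 at 0.918. Rps27l, at 1.11 (0.980 to 1.26), was highest, with 526 counts with both and 505 in conditioned medium, and Rpl22l1 (1.07), Rpl30 (1.06) and Rps25 (1.06) had intervals that included 1.

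With both treatments against control, a comparison that stands under either reading of the column heads, 2 members were past 25%, in opposite directions. Rpl31 had 1806 counts (180.5 CPM) with both and 1575 (143 CPM) in control, a ratio of 1.26 (1.18 to 1.35). Rpl39 had 408 counts (40.8 CPM) with both and 562 (51.1 CPM) in control, a ratio of 0.798 (0.701 to 0.908). The share past that fold was 26.9% of genes with at least 1 RPKM and 16.9% of protein-coding genes with at least 100 counts, against 2 of the 80 members. Rpl10 at 0.854 (0.792 to 0.921), Rps26 at 0.909 and Rps18 at 0.910 were among the next lowest. Rpl14 at 1.125 (1.09 to 1.17), Rps2 at 1.0998 and Rplp2 at 1.096 were among the next highest. The interval was above 1 for 7 members and below 1 for 15, and for 14.7% and 34.4% of protein-coding genes with at least 400 counts.

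The direction of the whole set against control was not settled. The median log2 ratio was -0.05, -0.05 for the large and -0.02 for the small subunit, with -0.07 for the other protein-coding genes, and 29 members were above 0 (36.3%, against 35.8% of the other genes), 15 large and 14 small. With TMM scaling 50 of 80 were above 0 and the median was 0.02. The members' median stood 0.02 above that of the other genes, a gap that scaling cannot change because it shifts all genes of a library alike.

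**Figure D3:**
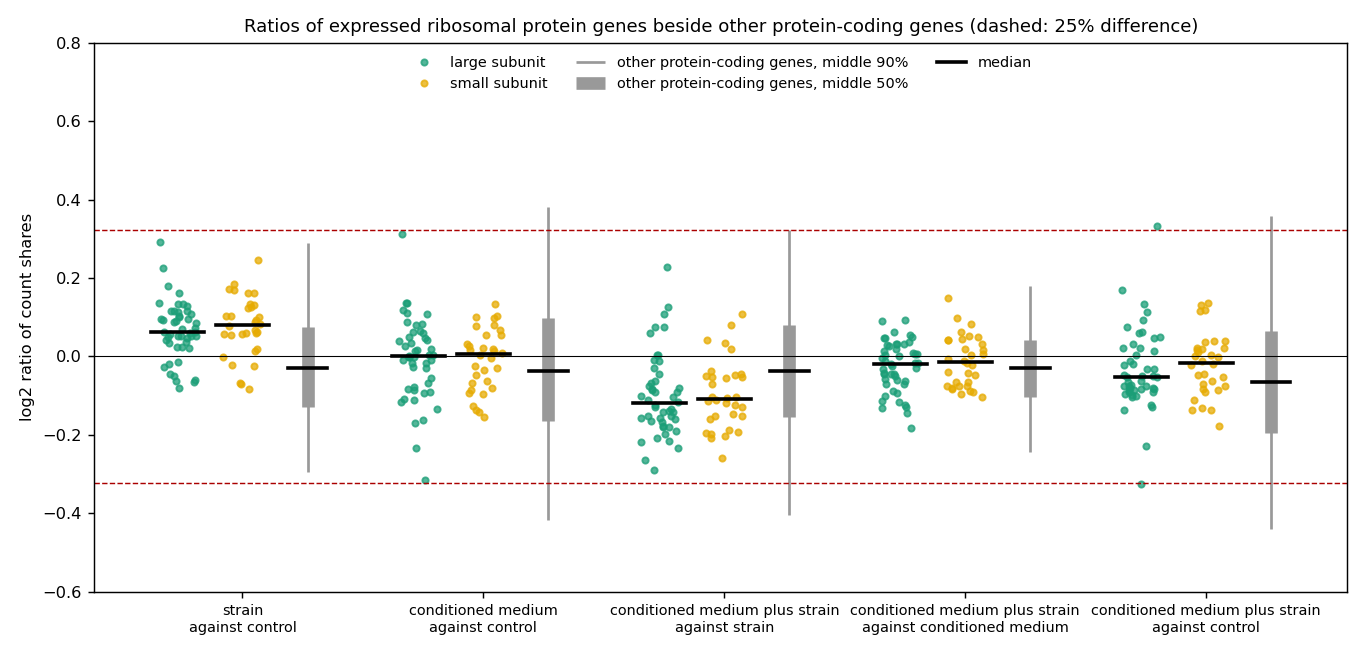
The log2 ratio of count shares for each expressed ribosomal protein gene (points, by subunit, with medians as black lines) in the 5 comparisons, beside the middle 50% and 90% of other protein-coding genes with at least 100 counts. Large and small subunit medians stayed side by side in every comparison, at 0.06 and 0.08 for strain against control and -0.12 and -0.11 for both treatments against strain, and 2 points lie past the dashed 25% lines.

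Seen across the 4 libraries, most members peaked with strain. The highest RPKM was in the strain library for 58 of 80 members, 34 large and 24 small, in the library with both treatments for 8, with conditioned medium for 6 and in control for 8. The lowest was with both treatments for 35, with conditioned medium for 22, with strain for 5 and in control for 18. Among the 9318 protein-coding genes with at least 100 counts in each library, 23.9% were highest with strain, 13.2% with both treatments, 25.4% with conditioned medium and 37.5% in control. Of the same genes 34.7% were lowest with both treatments, 22.5% with conditioned medium, 23.8% with strain and 18.995% in control. The narrowest member, Rps10, differed 1.03-fold between its highest and lowest library, and the widest were Rpl31 and Rpl39, at 1.26-fold and 1.254-fold.

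The members at the ends had 3 shapes. Rpl31 had 144 RPKM with both treatments, 142 with conditioned medium, 133.5 with strain and 114 in control, so control stood apart below the 3 treated libraries. Rpl39 had 93.9, 94.7, 113 and 118 RPKM in the same order and Rpl10 155, 154, 179 and 181, so both libraries with conditioned medium were low and the other 2 high. Rpl14 was the reverse of that, at 671, 656, 573 and 597 RPKM. Rpl36a had 115, 115, 141 and 115 RPKM and Rps29 116, 123, 138 and 117, with strain alone on top. On the genome Rpl31 lies on chromosome 1 at 39367851 to 39371911 and Rpl39 on chromosome X at 37082518 to 37085222, as the table gives them, read as GRCm38.

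**Figure D4:**
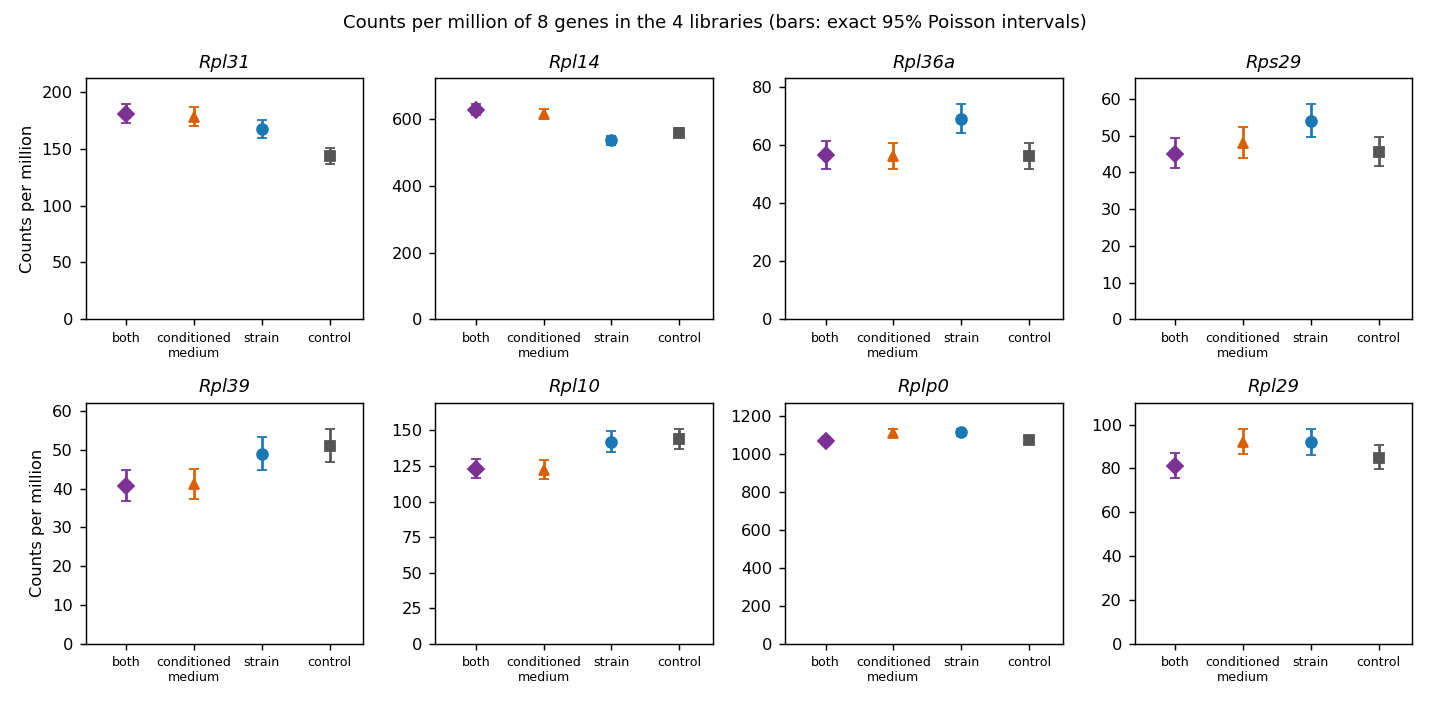
CPM of 8 members, chosen after their values were seen, in the 4 libraries, with exact 95% Poisson intervals for counting error and axes from 0. Control is lowest for Rpl31, the libraries with conditioned medium are low for Rpl39 and Rpl10 and high for Rpl14, and the strain library is highest for Rpl36a and Rps29.

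The strain response can be set beside itself in ordinary and in conditioned medium, since those comparisons share no library. In conditioned medium (both treatments against conditioned medium) and in ordinary medium (strain against control), 24 members were above 0 in both and 5 below 0 in both. Another 41 were above 0 in ordinary medium and below 0 in conditioned medium, and 10 the reverse. So 36.3% had the same sign, against 56.6% of 9318 protein-coding genes. These signs rest on the total-count scale: with TMM scaling 72 members were above 0 in ordinary medium and 44 in conditioned medium. For the conditioned-medium response of strained and of unstrained cells, 8 members were above 0 in both, 34 below 0 in both, 33 above 0 only without strain and 5 only with it. That is 52.5% with the same sign, against 68.6% of the protein-coding genes. Rpl31 and Rpl14 were above 0 and Rpl39 and Rpl10 below 0 in both conditioned-medium responses.

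**Figure D5:**
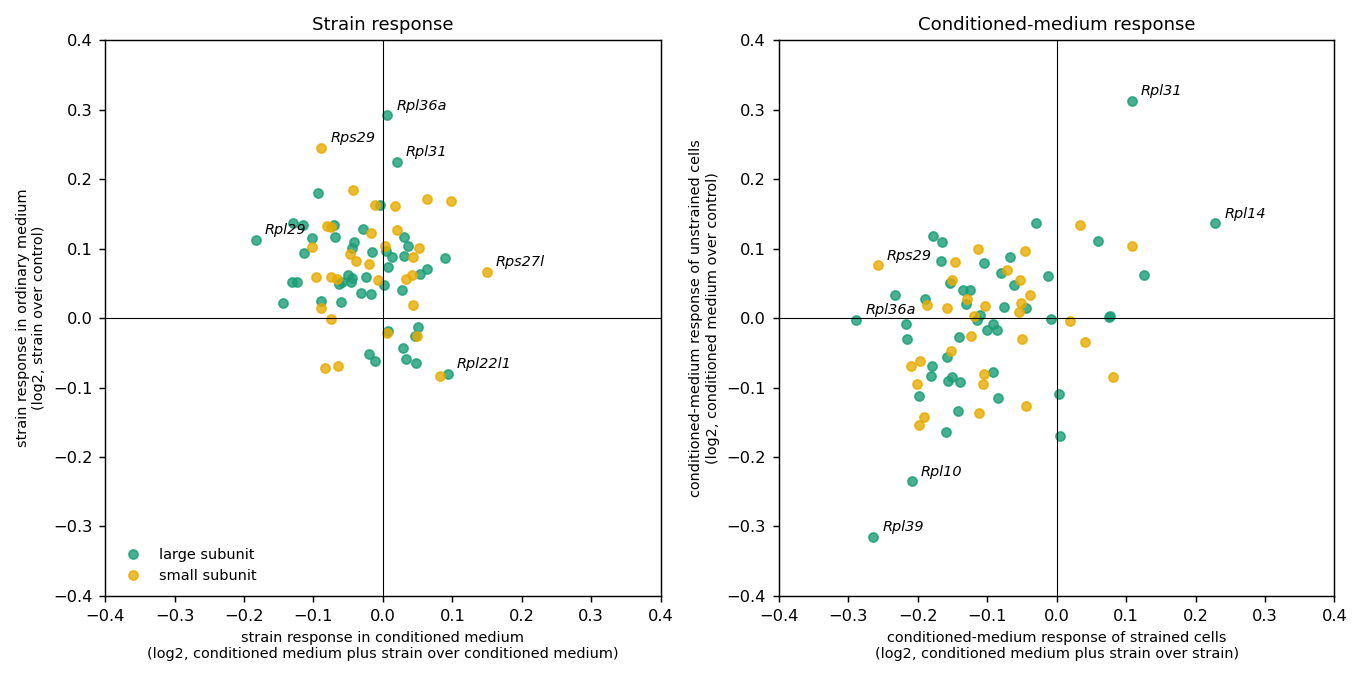
Each expressed ribosomal protein gene's log2 ratio for strain (left) and for conditioned medium (right), with the response in the doubly treated cells on the x axis and the single treatment on the y axis. On the left 41 of 80 points are above 0 for strain in ordinary medium and below 0 in conditioned medium, and on the right Rpl39 and Rpl10 are low and Rpl31 and Rpl14 high on both axes.

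Members were also grouped by their place in the ribosome. Over all 80 members, 81.3% were above 0 for strain against control (median 0.07) and 16.3% for both treatments against strain (median -0.11). The stalk proteins (Rplp0, Rplp1, Rplp2 and Rpl12) had a median log2 ratio of 0.07 for strain against control and -0.05 for both treatments against strain. Rpl5 and Rpl11, which bring the 5S ribosomal RNA into the large subunit and can also bind Mdm2, had 5493 and 547 counts with both treatments, 6139 and 638 with conditioned medium, 6834 and 630 with strain and 6466 and 623 in control. Both were below 0 for both treatments against strain, Rpl5 at a ratio of 0.861 and Rpl11 at 0.930. The 8 proteins around the exit tunnel had a median of 0.08 for strain against control and -0.17 for both treatments against strain. They included Rpl31 and Rpl39, which were past 25% in another comparison, both treatments against control, and in opposite directions. All 5 proteins of the decoding and mRNA entry region (Rps2, Rps3, Rps9, Rps15 and Rps23) were above 0 for strain against control, with a median of 0.09. At the mRNA exit (Rpsa, Rps14, Rps26 and Rps28) 3 of 4 were, with a median of 0.07. The human counterparts of 10 members are mutated in Diamond-Blackfan anaemia (among them Rps19, Rps24, Rpl5 and Rpl11). Of these, 8 were above 0 for strain against control and 2 for both treatments against strain, near the shares over all members. Their medians were 0.06 and -0.14. The 3 expressed paralogs had medians of -0.01 and 0.00 in these comparisons.

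Some ribosomal proteins are not caught by the name rule. Fau (fused to a ubiquitin-like protein), Rack1 and Rpl36al were all above 0 for strain against control (median 0.11) and all below 0 for both treatments against strain (median -0.04). Rack1, a small subunit scaffold protein, had 643 RPKM with both treatments, 658 with conditioned medium, 712 with strain and 661 in control.

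Another 23 genes whose mRNAs are known to carry a TOP motif were set beside the members. Most encode translation factors, but they include Vim, an intermediate filament gene, and Fau and Rack1 again. For strain against control 18 of 23 were above 0 (median 0.04), where 42.1% of other protein-coding genes were. For conditioned medium against control 6 were (median -0.05), against 42.2%, and for both treatments against strain 1 was (median -0.15), against 41.2%. For both treatments against conditioned medium 5 were (median -0.05), against 38.7%, and for both against control 4 were (median -0.07), against 35.8%. Among these 23 only Hnrnpa1 was past 25% in any of the 5 comparisons, in both against control at a log2 ratio of -0.33. At the ends for both treatments against strain were Hnrnpa1 (-0.32) and Eif4b (-0.31) below 0 and Eif3e (0.12) above it. Tpt1 and Eif2s3x had the highest ratios for strain against control, at 0.20 and 0.15, and Vim and Eif3l the lowest, at -0.08 and -0.04.

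Of 17 genes of the mTOR and LARP1 pathway, 6 were above 0 for strain against control (median -0.07, against 42.1% of other genes above 0) and 11 for both treatments against strain (median 0.02, against 41.2%). Deptor, an mTOR inhibitor, had 5.46 RPKM with both treatments, 6.08 with conditioned medium, 3.85 with strain and 3.24 in control, with a log2 ratio of 0.91 for conditioned medium against control. Rictor, a subunit of mTORC2, at 0.64, and Eif4ebp1, a translation repressor that mTORC1 switches off, at 0.56, were the other 2 past 25% in that comparison. Eif4ebp1 was also the highest for strain against control, at 0.34, and Rps6kb2, an S6 kinase, the lowest at -0.18. For both treatments against strain Deptor (0.50) and Rictor (0.35) were highest and past 25%, and Tsc1, which restrains mTORC1, was lowest at -0.16. The 77 mitochondrial ribosomal protein genes had medians of 0.01 for strain against control and -0.04 for both treatments against strain, with 41 (53.2%) and 30 (39.0%) above 0.

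Other genes lie over or inside many members. In all 34 of the 84 overlapped another gene of the table, 9 of them on the opposite strand, and 24 held 33 snoRNA genes, which together had 284 to 327 counts per library. The library kit keeps strand, but whether the counting used it is not given in the sources used here. Rpl31 overlaps Tbc1d8 on the opposite strand, which had 144 counts with both treatments, 145 with conditioned medium, 139 with strain and 97 in control, so control was lowest for both genes. The part of Tbc1d8 in the Rpl31 result was not tested. Over the 47 expressed members that overlap no other gene, the median log2 ratio was 0.06 for strain against control and -0.11 for both treatments against strain, and none was past 25% for both treatments against control. That set leaves out Rpl31 and also Rpl39, which holds Snora69. Snora69 had 1 count with both treatments, 0 with conditioned medium, 0 with strain and 1 in control.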

How the data were processed

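The table held a count and an RPKM value per gene and library, both deposited by the authors, per the file headers. Recomputing the RPKM values that the authors deposited, from count, gene length and library total, gave a relative difference of 5.05e-06 at most. Reads were aligned with HISAT2 and build mm9 is named, per the submitters' processing notes. The version, counting tool, strand setting and annotation are not given there or in the labels. The positions match a later build: 28744 of 40033 genes matched by Entrez number (71.8%), and 66 of the 84 members, had the chromosome and start of a GRCm38.p6 RefSeq table, so they are read as GRCm38. Positions and other labels were deposited as text with no unit. The libraries were directional, made from Trizol RNA with a NEBNext Ultra kit, per the labels.

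Each library's total count was the main scale. Ratios of count shares carry 95% intervals from exact Clopper-Pearson limits, and single counts exact Poisson ones; both cover counting error only. Members were called past a 25% difference, with 10% and 2-fold as alternatives. The minimum was 1 RPKM, which 80 of 84 members passed. No p-value was computed, since 1 library per group leaves no spread between replicates. The interval and ratio code was tested on simulated data.

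Members, role groups and lists were chosen with earlier results of these data known. Named are the 5 highest and 5 lowest ratios per comparison, the 5 highest and 5 lowest levels, paralogs, members under 100 counts, role group members, and, among the 2 highest and 2 lowest ratios of context lists, those that bear on the text; other names, and the X-linked grouping, were chosen after their values were seen. A few genes are not reported here and were left out of the role groups and context lists, though they count in every total over members. Alternatives were TMM (edgeR 4.0.16) and median-of-ratios (DESeq2 1.42.0) scaling, protein-coding totals, other minimums, log2(RPKM + 1) and log2(RPKM + 0.1), and leaving out paralogs or overlapping members. Protein identities of paralogs were planned and not run. Work was done in R 4.3.3 and Python 3.11.15.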

Additional observations from a re-analysis of the deposited data

Results flagged for a closer look

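On the total-count scale, strain and conditioned medium had ratios on opposite sides of 1 for some members, depending on the other treatment. The counting intervals were off 1 on both sides. How many other genes met this rule was not counted. These differences between single libraries were not tested, and each value below is a difference of log2 ratios, the doubly treated response minus the single one. For the strain response, in conditioned medium minus in ordinary medium, the summed counts of all members gave -0.0933, with a ratio of 0.983 (0.976 to 0.989) in conditioned medium and 1.05 (1.04 to 1.06) in ordinary medium. The large subunit gave -0.0799 and the small subunit -0.115. This reversal of the summed set rests on the total-count scale. Of protein-coding counts, members took 1.81% with both treatments and 1.80% with conditioned medium, and 1.91% with strain and 1.79% in control. Of single members, Rpl23a gave -0.267 (0.914 in conditioned medium and 1.099 in ordinary medium), Rpl32 -0.217, Rpsa -0.206, Rps12 -0.206, Rpl5 -0.186, Rpl8 -0.113 and Rplp0 -0.110. Most of these flags rest on the same scale. TMM scaling raises every log2 ratio of both treatments against conditioned medium by 0.025. The upper limits there for Rpl8 (0.999), Rps12 (0.996), Rpl32 (0.990), Rpl5 (0.989) and Rplp0 (0.986) lie nearer to 1 than that shift. Those for Rpl23a (0.979) and Rpsa (0.978) do not. For the conditioned-medium response, strained minus unstrained, Rpl34 gave -0.274 (0.892 in strained cells and 1.08 in unstrained cells), Rpsa -0.206, Rps3 -0.140 and Rplp0 -0.110. For Rplp0 and Rpsa both values are the same difference over the same 4 libraries, read along each treatment in turn.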

How the results depend on the processing

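The direction of the set's median log2 ratio held under all 10 alternatives for strain against control (0.06 to 0.12) and for both treatments against strain (-0.12 to -0.08), in each subunit as well. It changed sign under 1 of 10 for conditioned medium against control (0.00 to 0.05), 4 of 10 for both treatments against conditioned medium (-0.02 to 0.02) and 3 of 10 for both against control (-0.05 to 0.03; 4 of 10 for the small subunit). The cause was not tested. Some alternatives could hardly change the direction: the minimum of 100 counts kept the same 80 members. For strain against control, log2(RPKM + 1) and log2(RPKM + 0.1) both gave 0.07, as the main setting did. Members past 25% were 1 in strain against control and 1 in conditioned medium against control under TMM, median-of-ratios and protein-coding totals without the 50 most abundant genes, and 1 in conditioned medium against control under all protein-coding counts. In both treatments against control they were 1 under each of these 4 scalings and 0 without overlapping members or at 2-fold. With no minimum they were 2, 2, 3 and 1 in strain against control, conditioned medium against control, both against strain and both against conditioned medium; at 10% they were 10, 7, 33 and 3, and 5 in both against control. As percent of protein-coding counts, members held 1.81 with both, 1.80 with conditioned medium, 1.91 with strain and 1.79 in control. No paired analysis was possible because each group has 1 library and no result comes from a test. Depth limits small differences: Rpl39, with 408 counts with both and 438 with conditioned medium, had an interval of 0.865 to 1.14 around its ratio of 0.992, and no spread between cultures is known.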

Other observations

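The X chromosome carries 4 of the expressed members: Rpl39, Rpl10, Rps4x and Rpl36a. This grouping was chosen after the values were seen. For conditioned medium against control all 4 were below 0, with a median log2 ratio of -0.19, while 41 of 76 autosomal members were above 0, with a median of 0.00. Rps4x, a small subunit protein, had 153 CPM with both treatments, 153 with conditioned medium, 165 with strain and 168 in control, so it was low in both libraries with conditioned medium, as Rpl39 and Rpl10 were, and Rpl36a stood at 0.998 for conditioned medium against control. For both treatments against control their median was -0.18, with 1 of 4 above 0. Other X-linked protein-coding genes with at least 100 counts also stood lower than autosomal ones: 265 X-linked genes had a median of -0.11 and 9151 autosomal genes -0.04 for conditioned medium against control, and for both treatments against control 258 had -0.15 and 9040 had -0.06. The lower X-linked level was not confined to conditioned medium. For strain against control other X-linked genes had a median of -0.07 and autosomal ones -0.03. The X-linked members had -0.02 there, with 1 of 4 above 0, and autosomal members 0.07. For both treatments against conditioned medium 3 of the 4 were above 0. No test was possible, and the members are 4 genes of 1 chromosome.

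Short genes other than members stood on the same side as the members. Of 332 other protein-coding genes with models under 1000 bases, 200 were above 0 for strain against control, with a median log2 ratio of 0.04, while 4450 genes of 4000 bases and over had a median of -0.05. For both treatments against strain, 322 short genes had a median of -0.07 and 4379 long ones -0.04. Among members, the 24 under 600 bases had medians of 0.06 and -0.14 in these comparisons and the 28 of 1000 bases and over 0.06 and -0.09. The part of gene length in the members' ratios was not tested.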
